A study of Mus musculus with 12 samples.

Results

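The genes described here are the 10 listed members of the machinery that joins ATG12 to ATG5 and LC3 family proteins to membranes: Atg3, Atg4b, Atg5, Atg7, Atg10, Atg12, Atg16l1, Map1lc3b, Gabarap and Gabarapl2. They were taken by symbol from the counts per gene, where all 10 of 10 were present among 12960 genes, and the choice used no measured value. RNA sequencing was done on bone marrow-derived macrophages (BMDMs) of wild type (WT) mice and of mice without AMPKβ1, the regulatory subunit encoded by Prkab1 (AMPKβ1-/-). BMDMs received 10 μM PF-06409577 (PF), an activator of AMPKβ1 complexes, or vehicle (0.1% DMSO) for 6 h, which gave 4 groups of 3 libraries: WT with vehicle, WT with PF, AMPKβ1-/- with vehicle and AMPKβ1-/- with PF. The cells of all groups were grown from marrow for 7 days with medium of L929 cells as a source of M-CSF, so AMPKβ1 was missing throughout differentiation in the AMPKβ1-/- groups. The labels do not say whether the libraries of a group came from separate mice, and p values then measure only the spread between these libraries.

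Autophagy encloses cell contents in a double membrane that fuses with lysosomes, and 2 ubiquitin-like reactions build that membrane. ATG7 is the activating enzyme of both, ATG10 then joins ATG12 to ATG5, and this conjugate binds ATG16L1. ATG4 proteases trim LC3 and GABARAP proteins at a glycine near the C terminus, and ATG3, guided by the ATG12-ATG5-ATG16L1 complex, joins that glycine to phosphatidylethanolamine in the membrane. AMPK acts on autophagy by phosphorylating ULK1, and in macrophages the same conjugation machinery also serves LC3-associated phagocytosis.

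The glycine that ATG4 exposes is the chemical centre of the system, so the ends of the 3 coding sequences that carry it are shown, from GENCODE M21 on GRCm38, plus strand, each ending with its stop codon and with the last glycine codon in capitals.
Map1lc3b, chr8:121596723-121596770: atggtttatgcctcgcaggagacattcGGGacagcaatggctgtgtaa
Gabarap, chr11:69994489-69994524: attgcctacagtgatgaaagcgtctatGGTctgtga
Gabarapl2, chr8:111952370-111952405: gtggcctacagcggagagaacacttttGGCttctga
In Map1lc3b this glycine was codon 120 of 125, leaving 5 codons for ATG4 to remove. In Gabarap and Gabarapl2 it was codon 116 of 117, leaving 1 codon.

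The promoters were read because the TFEB family, which binds the letters CACGTG (the E-box core, the same on both strands), is known to drive autophagy genes. RefSeq promoters on GRCm38.p6, 300 bases from 250 before to 50 after a start site, were found for 8 of the 10 genes. The E-box core was in 3 of these 8, against 7.15% of all 32851 promoters. The core itself holds a CG pair, and the background was not matched for CG content, so an excess was not tested. A longer form, the CLEAR palindrome, which holds this core with more letters on each side, was also searched for. It had 0 matches in each of these 8 promoters, against 0.326% of all promoters that hold it. At so low a rate, 0 matches in 8 promoters says little. Windows of the plus strand around each match of the E-box core follow, with the core in capitals.
Atg3, chr16:45158708-45158767: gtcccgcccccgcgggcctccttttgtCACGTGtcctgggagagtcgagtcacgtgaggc
Atg3, chr16:45158731-45158790: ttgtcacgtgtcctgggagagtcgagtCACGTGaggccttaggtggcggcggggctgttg
Atg5, chr10:44268298-44268357: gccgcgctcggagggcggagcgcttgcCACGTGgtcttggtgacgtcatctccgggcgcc
Atg7, chr6:114670937-114670996: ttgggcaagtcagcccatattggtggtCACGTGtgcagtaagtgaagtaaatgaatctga
Counted from the start site, the matches of Atg3 began at positions −94 and −71, that of Atg5 at −14 and that of Atg7 at −132. Both windows of Atg3 overlap and come from 1 promoter. The start site used for Atg7 lies 27999 bases inside its GENCODE gene and that of Atg4b 3405 bases inside, so these windows are not at the first annotated start. Of the 8 promoters 6 had 59.3% to 78% GC and 20 to 55 CG pairs. Those of Atg7 (42.7% and 4) and Gabarap (45.7% and 7) were poorer, against medians of 52.7% and 7 over all promoters.

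Libraries held 8935609 to 14358180 counts, and 3 counts, the limit that a count of 0 allows, corresponded to 0.196 to 0.321 CPM, for counting error only. CPM are counts relative to a library's total after scaling by edgeR's TMM factors, which ran from 0.881 to 1.09. Of all genes, 10822 passed the low-count filter, among them all 10 members. A gene is said to have risen or fallen where edgeR's quasi-likelihood test gave a Benjamini-Hochberg adjusted p below 0.05 over these genes. Macrophage markers were abundant, with all 8 in the counts and a summed level of 25191 to 29681 CPM, while 5 of 8 granulocyte markers were in the counts and summed to at most 5.14 CPM, 5 of 6 fibroblast markers summed to at most 9.48 CPM and 1 of 7 lymphoid markers reached at most 0.187 CPM. The granulocyte sum was 1.66 to 2.46 CPM in WT with vehicle and 2.57 to 4.08 CPM in WT with PF. In AMPKβ1-/- it was 2.12 to 3.10 CPM with vehicle and 3.63 to 5.14 CPM with PF. In WT BMDMs 3 of the 8 macrophage markers fell with PF (Csf1r, Cd14 and Itgam) and 0 rose, against 8.95% and 6.99% of tested genes. Their part in the results was not tested. In such bulk libraries fewer cells of a type and less RNA per cell cannot be told apart.

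The libraries also differed in how log2 counts ran with the GC content of transcripts, and this trend followed the groups. The slope per 10 points of GC was 0.36 to 0.72 in WT with vehicle, −0.05 to 0.37 in WT with PF, −0.36 to −0.10 in AMPKβ1-/- with vehicle and −0.51 to −0.33 in AMPKβ1-/- with PF. The members lie on both sides of it. Transcripts of Atg10, Atg12, Atg5, Atg3 and Gabarapl2 have 40.3%, 44.3%, 44.6%, 44.8% and 45.3% GC, and those of Gabarap, Atg4b, Atg16l1, Map1lc3b and Atg7 have 50.8%, 50.8%, 52.6%, 52.6% and 53.0%. Values from a fit with each library's trend in GC and length as an offset are therefore given beside the results.

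Prkab1 had 43.4, 44.2 and 45.3 CPM in WT with vehicle and 41.9, 37.3 and 37.7 CPM in WT with PF. It had 8.39, 7.70 and 6.05 CPM in AMPKβ1-/- with vehicle and 9.41, 9.42 and 7.90 CPM in AMPKβ1-/- with PF. Every AMPKβ1-/- library was thus below every WT library, and with vehicle the log2 fold change was −2.57 (SE 0.12, adjusted p = 8.85e-09 by edgeR).

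In resting WT BMDMs the mRNA of the LC3 family dominated the set. Per kb of transcript, Gabarap had 503 ± 59.8 CPM (SD, n = 3), Map1lc3b 138 ± 10.8, Gabarapl2 39.1 ± 6.22 and Atg7 31.2 ± 1.20. Atg4b followed with 18.99 ± 0.69, Atg16l1 with 16.4 ± 1.03, Atg3 with 10.2 ± 2.47, Atg5 with 7.01 ± 1.49, Atg12 with 6.67 ± 1.06 and Atg10 with 1.57 ± 0.33. Of neighbours in this order, the library ranges overlapped for Gabarapl2 and Atg7, for Atg3 and Atg5 and for Atg5 and Atg12, so their order is not resolved. The whole order also depends on the transcript length used for each gene and was not adjusted for the GC trend. In AMPKβ1-/- with vehicle the mean of Atg3 (17.1 CPM per kb) was above that of Atg16l1 (14.6), with ranges that overlapped. Atg10 had 18, 32 and 26 counts in these libraries, so it is the least precise of the 10. Part of Map1lc3b, 58 exonic bases, overlaps Zcchc14 on the opposite strand. The library kit keeps strand, but the strand setting of the counting is not given in the sources used here.

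**Figure D1:**
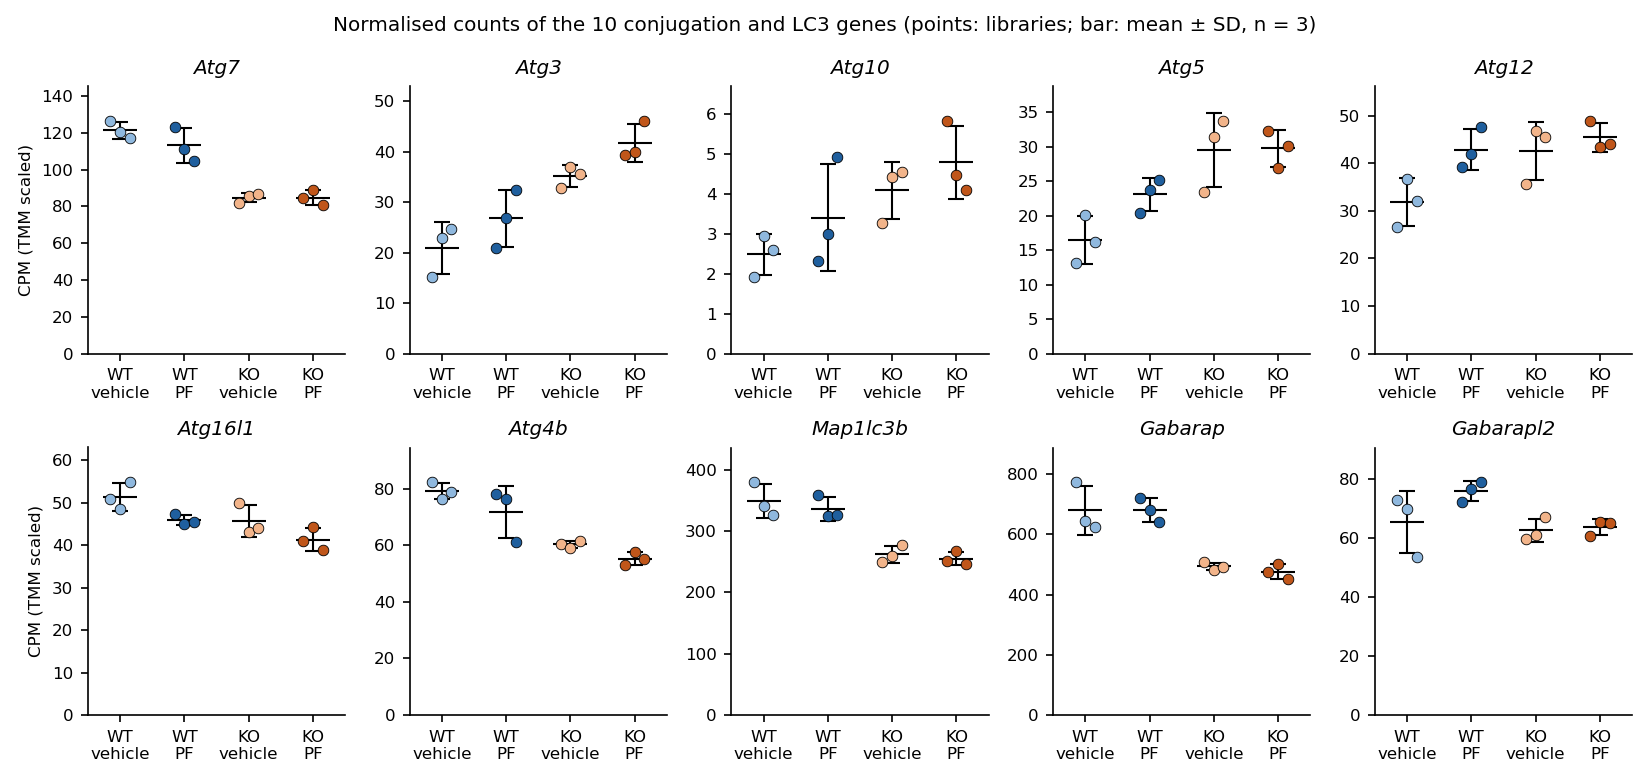
TMM-scaled CPM (vertical axes, from 0) of the 10 genes in each library (points) of the 4 groups, with mean ± SD of 3 libraries; KO stands for AMPKβ1-/-. Atg12 and Atg5 sit higher in all 3 PF libraries of WT than in the 3 vehicle libraries, and Atg7, Map1lc3b and Gabarap sit lower in all 6 KO libraries than in the 6 WT libraries.

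The first comparison asks whether 6 h of PF changed the conjugation genes in WT BMDMs. Atg12, the ubiquitin-like protein joined to ATG5, rose 1.35-fold, and it was the single member past the test. Atg5 was 1.39-fold higher and just missed the threshold. The activating enzyme, the protease and the LC3 family genes among the members had differences that did not pass. Across all tested genes 6.99% rose and 8.95% fell, so 1 rise and 0 falls among 10 genes is near the background. The study itself named Atg5 and Atg12 from these libraries, so their direction is not independent evidence.

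Atg12 had 26.6, 36.7 and 32.0 CPM with vehicle and 39.1, 41.8 and 47.6 CPM with PF. Every PF library was above every vehicle library, the lowest by a small step. The log2 fold change was 0.43 (SE 0.13, adjusted p = 0.0384 by edgeR, 95% confidence interval 0.15 to 0.71). The call was lost when library 1 or 3 of WT with vehicle, library 2 or 3 of WT with PF, or library 3 of AMPKβ1-/- with PF was left out (adjusted p from 0.0533 to 0.161). Under the GC and length offset it was 0.12 (adjusted p = 0.410), and over all 22 alternatives the adjusted p ran from 0.0165 to 0.410.

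Atg5, the acceptor of ATG12, had 13.1, 20.1 and 16.2 CPM with vehicle and 20.4, 23.7 and 25.2 CPM with PF. The groups did not overlap, but the highest vehicle library nearly reached the lowest PF library. The log2 fold change was 0.48 (SE 0.16, adjusted p = 0.0553 by edgeR). DESeq2 called it (adjusted p = 0.0303), as did fits that left out library 2 of WT with vehicle, library 1 of WT with PF or library 1 of AMPKβ1-/- with vehicle, and the range over 22 alternatives was 0.0205 to 0.378. With the GC and length offset it was 0.16 (adjusted p = 0.378).

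Atg16l1, the partner that brings the conjugate to the membrane, went the other way. It had 50.9, 48.4 and 54.7 CPM with vehicle and 47.3, 44.9 and 45.5 CPM with PF, with no overlap, and the log2 fold change of −0.16 (SE 0.09) did not pass the test (adjusted p = 0.208 by edgeR). Groups without overlap were found for 14.2% of tested genes in the higher and 18.1% in the lower direction, against 2 and 1 of the 10 members.

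The E2-like enzymes overlapped between treatments. Atg3, the E2-like enzyme of LC3 proteins, had 15.2, 22.9 and 24.8 CPM with vehicle and 21.01, 26.95 and 32.4 CPM with PF, and the lowest PF library lay below 2 of the vehicle libraries. The log2 fold change of 0.35 had an SE of 0.17 (adjusted p = 0.159 by edgeR), and the gene passed when library 1 of WT with PF was left out (0.50, adjusted p = 0.0329, of a range of 0.0329 to 0.940). With the GC and length offset its log2 fold change was 0.02 (adjusted p = 0.940). Atg10, the E2-like enzyme of ATG12, had 18, 32 and 26 counts with vehicle and 27, 32 and 64 with PF, and the log2 fold change of 0.46 had an SE of 0.29 (adjusted p = 0.263).

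The abundant members differed by little. Atg7 had 127, 120.5 and 117 CPM with vehicle and 123, 111 and 105 CPM with PF (log2 fold change −0.10, SE 0.08, adjusted p = 0.359 by edgeR). Map1lc3b, which encodes LC3B, had a log2 fold change of −0.05 (95% confidence interval −0.22 to 0.11), and Gabarap one of 0.00 (95% confidence interval −0.18 to 0.18). Both intervals span 0. For Gabarapl2 the log2 fold change was 0.21 (SE 0.10, adjusted p = 0.154), and for the protease gene Atg4b it was −0.14 (SE 0.09, adjusted p = 0.274). With a log2 fold change above 0.8 or below −0.8 as a further condition, which 1.16% of tested genes met in the higher and 0.37% in the lower direction, 0 members were called by edgeR. At an unadjusted p below 0.05, which 17.2% of tested genes met in the higher and 18.1% in the lower direction, there were 2 members, Atg5 and Atg12, both higher, and DESeq2 with its adjusted p alone called the same 2. The share of all tested genes that DESeq2 called was not computed, so its 2 calls have no background beside them.

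**Figure D2:**
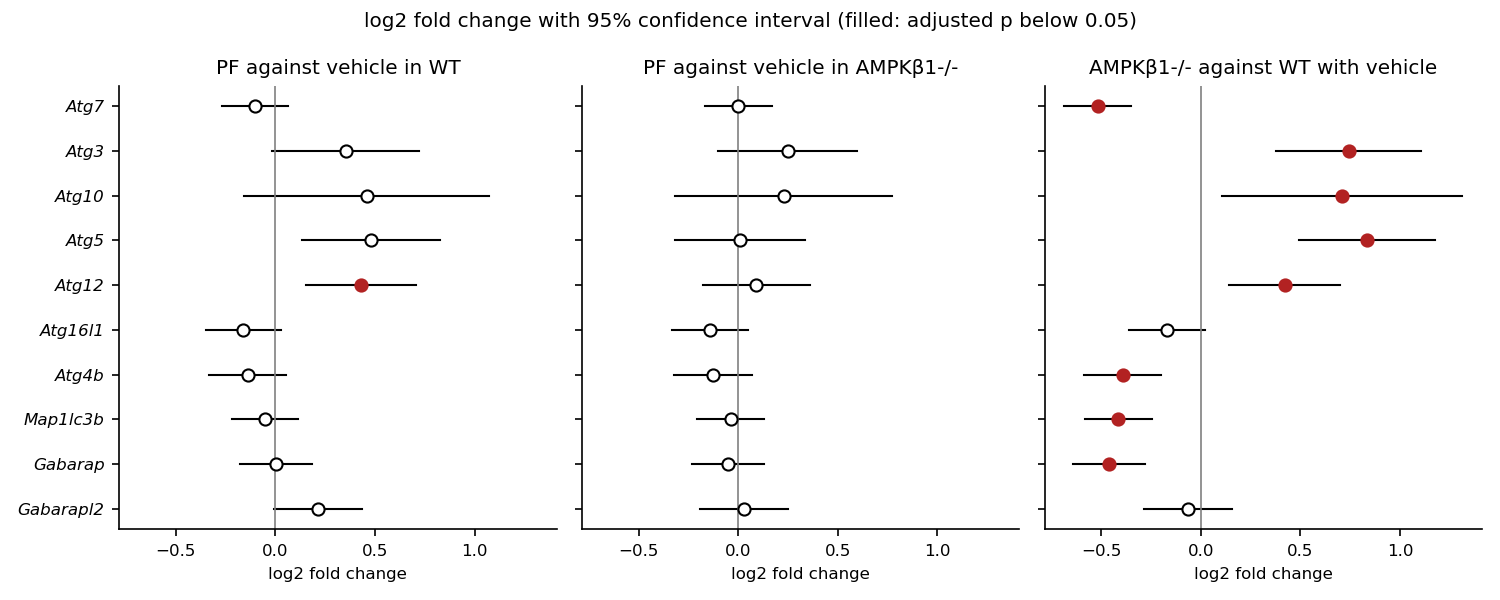
log2 fold changes (horizontal axes) of the 10 genes for the response to PF in WT (left), the response to PF in AMPKβ1-/- (middle) and the genotypes compared with vehicle (right), with 95% confidence intervals from edgeR; filled points passed the test. One gene, Atg12, is filled in the first panel, 0 in the second and 8 in the third, from −0.52 for Atg7 to 0.83 for Atg5.

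The second comparison asks the same in AMPKβ1-/- BMDMs, which lack the subunit that PF acts through. By edgeR 0 of 10 members rose and 0 fell, at a background of 0.0554% and 0%, and 0 were called by DESeq2 or limma-voom. At an unadjusted p below 0.05 by edgeR there were also 0 members. Of the 10822 tested genes 464 met it in the higher and 75 in the lower direction. Atg12 had 35.6, 46.8 and 45.4 CPM with vehicle and 48.9, 43.3 and 44.1 CPM with PF (log2 fold change 0.09, SE 0.13). Atg5 had 23.4, 31.4 and 33.7 CPM with vehicle and 32.2, 26.9 and 30.1 CPM with PF (log2 fold change 0.01, SE 0.15). Both genes overlapped between treatments. Atg3 had the largest difference of the 10, with 32.7, 37.0 and 35.6 CPM against 39.3, 39.9 and 46.1 CPM (log2 fold change 0.25, SE 0.16, adjusted p = 0.982 by edgeR). Groups did not overlap for Atg3 in the higher and Atg4b in the lower direction, against 8.21% and 6.28% of tested genes.

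Whether the response to PF differed between genotypes was tested as an interaction. Of the 10 members, 0 passed in either direction by edgeR, at a background of 0.176% and 0.24%, and 0 by DESeq2 or limma-voom. At an unadjusted p below 0.05 by edgeR there were also 0 members. Of the 10822 tested genes 687 met it in the higher and 863 in the lower direction. For Atg5 the WT response exceeded the AMPKβ1-/- response by 0.47 on the log2 scale (SE 0.22, adjusted p = 0.353 by edgeR). For Atg12 the excess was 0.34 (SE 0.18, adjusted p = 0.417). The 95% confidence intervals, −0.004 to 0.94 for Atg5 and −0.05 to 0.72 for Atg12, include both no difference and a response confined to WT, so the rise of Atg12 in WT was not shown to depend on AMPKβ1. The excesses under the GC and length offset were 0.24 and 0.13.

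The third comparison is between the genotypes with vehicle, and here the conjugation genes split into 2 sets. Atg5, Atg3, Atg10 and Atg12 were higher in AMPKβ1-/- BMDMs, and Atg7, Gabarap, Map1lc3b and Atg4b were lower, all 8 past the test. The background was high, since 29.7% of tested genes rose and 30% fell, and 4 of 10 in each direction is not far from it. Of the 8 macrophage markers 2 were higher and 4 lower in AMPKβ1-/-, and the fibroblast markers summed to 2.87 to 9.48 CPM there against 1.57 to 2.89 CPM in WT. Their part in the genotype results was not tested. Groups did not overlap for 3 members in the higher direction (Atg3, Atg5 and Atg10) and 4 in the lower, against 30.9% and 32% of tested genes. With the further condition on the fold change, met by 16.1% of genes in the higher and 1.76% in the lower direction, 1 member was called, Atg5.

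Atg5 (GRCm38, chromosome 10, 44268358 to 44364291) went from 13.1, 20.1 and 16.2 CPM in WT to 23.4, 31.4 and 33.7 CPM in AMPKβ1-/-, a 1.78-fold rise (log2 fold change 0.83, SE 0.16, adjusted p = 5.29e-04 by edgeR). It kept its direction and passed the test in all 22 alternatives, with the smallest log2 fold change, 0.32, under the GC and length offset (adjusted p = 0.0183). Atg3 (chromosome 16, 45158785 to 45188538) went from 15.2, 22.9 and 24.8 to 32.7, 37.0 and 35.6 CPM (log2 fold change 0.74, SE 0.17, adjusted p = 0.00199). With the offset it was 0.27 (adjusted p = 0.0940).

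Atg10 and Atg12 were less firm. Atg10 was higher by 0.71 on the log2 scale (SE 0.28, adjusted p = 0.0421 by edgeR), and its call was lost in 5 of the 12 fits that left out a library and with limma-voom. These were library 1 or 3 of WT with vehicle, library 2 or 3 of AMPKβ1-/- with vehicle and library 2 of AMPKβ1-/- with PF, which gave adjusted p from 0.0501 to 0.145. Atg12 had 26.6, 36.7 and 32.0 CPM in WT and 35.6, 46.8 and 45.4 CPM in AMPKβ1-/-, with overlap (log2 fold change 0.42, SE 0.13, adjusted p = 0.0117). Its adjusted p was 0.0640 when library 1 of WT with vehicle was left out and 0.0643 when library 2 of AMPKβ1-/- with vehicle was. The direction of both turned under the GC and length offset, to −0.28 for Atg10 (adjusted p = 0.333) and −0.29 for Atg12 (adjusted p = 0.00617).

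The lower set was steadier. Atg7 (chromosome 6, 114643097 to 114860614) had 127, 120.5 and 117 CPM in WT and 82.0, 85.9 and 86.8 CPM in AMPKβ1-/-, a clear gap (log2 fold change −0.52, SE 0.08, adjusted p = 1.22e-04 by edgeR). Gabarap had 772, 643 and 624 CPM against 507, 481 and 492 CPM (log2 fold change −0.46, SE 0.09, adjusted p = 3.90e-04). Map1lc3b had 379.5, 341 and 326 CPM against 249, 259 and 278 CPM (log2 fold change −0.41, SE 0.08, adjusted p = 4.71e-04). These 3 genes fell in all 22 alternatives, and with the offset their log2 fold changes were −0.34, −0.26 and −0.17. Atg4b had 82.3, 76.6 and 78.8 CPM against 60.4, 59.0 and 61.7 CPM (log2 fold change −0.39, SE 0.09, adjusted p = 0.00192), and it missed the threshold where libraries were scaled by size alone (−0.18, adjusted p = 0.0652, of a range of 4.49e-04 to 0.0652).

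Atg16l1 and Gabarapl2 did not pass. For Atg16l1 the value was −0.17 (SE 0.09, adjusted p = 0.114 by edgeR), and it passed once library 1 of AMPKβ1-/- with vehicle was left out (−0.24, adjusted p = 0.0428, of a range of 0.0428 to 0.705). Gabarapl2 had 73.0, 70.1 and 53.6 CPM in WT and 59.6, 61.2 and 67.1 CPM in AMPKβ1-/- (log2 fold change −0.07, SE 0.10, adjusted p = 0.599), and with the offset it was −0.45 (adjusted p = 0.00277). The genotypes thus differed, under that offset, for 1 member in the higher and 6 in the lower direction, in place of 4 and 4, and for 14.4% and 20% of tested genes.

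Among the 10 members the log2 fold change ran with GC content. The Spearman correlation across these 10 genes, which share all libraries, was −0.87 for PF against vehicle in WT, −0.71 in AMPKβ1-/- and −0.82 for AMPKβ1-/- against WT. With the offset, which is built to remove a trend with GC content, it was −0.14, 0.03 and −0.14. For the interaction it was −0.93 without the offset and −0.09 with it. The median size of the log2 fold change with PF in WT went from 0.19 to 0.05, and between genotypes it went from 0.44 to 0.29. Across all tested genes with a GC content the correlations before the offset were −0.71, −0.45 and −0.77, and −0.50 for the interaction. The trend was thus one of the whole libraries. Whether it arose in the cells or in making the libraries cannot be told apart with 1 set of libraries.

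**Figure D3:**
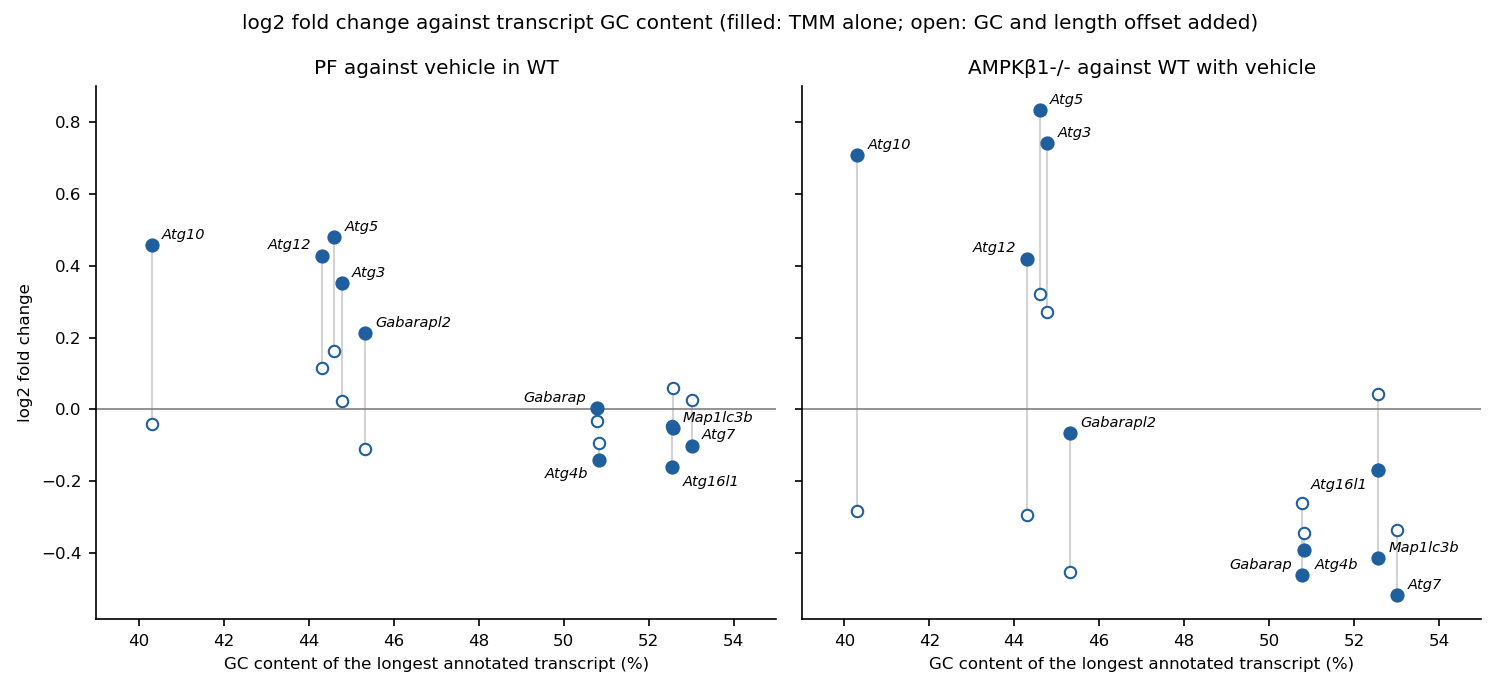
log2 fold change (vertical axes) of the 10 genes against the GC content of the longest annotated transcript (horizontal axes, %), for PF against vehicle in WT and AMPKβ1-/- against WT with vehicle; filled points are TMM alone and open points add the GC and length offset. In the left panel the 5 genes of lowest GC content lie highest and their open points lie nearer to 0, while in the right panel Atg5 and Atg3 stay above 0 at 0.32 and 0.27.

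Because ATG12, ATG5 and ATG16L1 work as 1 complex, the mRNA ratios were also read within each library, per kb of transcript. Atg5 to Atg16l1 was 0.34, 0.55 and 0.39 in WT with vehicle and 0.57, 0.70 and 0.74 in WT with PF. In AMPKβ1-/- it was 0.63, 0.97 and 1.02 with vehicle and 1.05, 0.81 and 1.03 with PF. Vehicle and PF did not overlap in WT, by a narrow gap, and overlapped in AMPKβ1-/-. Atg12 to Atg16l1 was 0.41 ± 0.08 (SD, n = 3) in WT with vehicle, 0.61 ± 0.07 in WT with PF, 0.62 ± 0.13 in AMPKβ1-/- with vehicle and 0.73 ± 0.07 in AMPKβ1-/- with PF. By an exact two-sided permutation test on log2 ratios, in which 3 against 3 libraries cannot go below 0.10, the p for PF in WT was 0.10 for both ratios, at log2 differences of 0.66 for Atg5 and 0.60 for Atg12. In WT every PF library had higher Atg5 and Atg12 and lower Atg16l1 than every vehicle library, as given above. The ratios therefore had to separate and this p had to be at its limit, so neither adds to the results per gene. For PF in AMPKβ1-/- the exact p was 0.50 and 0.40, and between genotypes with vehicle it was 0.10 and 0.20. The genes differ in GC content, and the libraries with the lowest Atg5 ratio, WT vehicle 1 and 3, had the steepest GC slopes, 0.72 and 0.53. With the GC and length offset the log2 fold changes with PF in WT were 0.16 for Atg5, 0.12 for Atg12 and −0.05 for Atg16l1. Between genotypes with vehicle they were 0.32, −0.29 and 0.04. The part of the GC trend in the ratios was not tested.

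**Figure D4:**
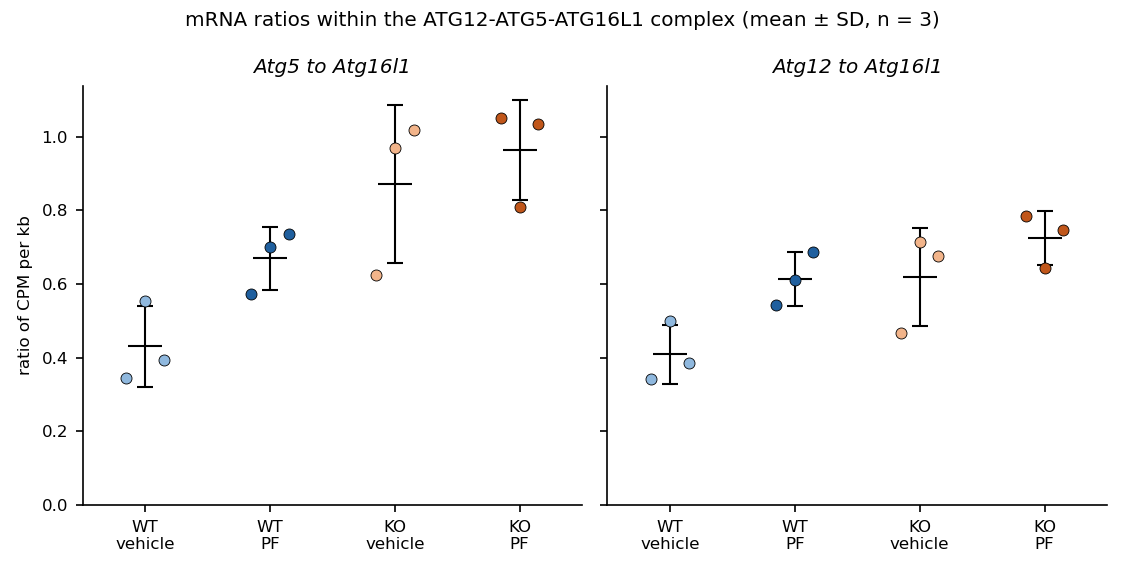
Ratio of Atg5 and of Atg12 to Atg16l1 mRNA (vertical axis, ratio of CPM per kb, from 0) in each library (points), with mean ± SD of 3 libraries per group; KO stands for AMPKβ1-/-. The Atg5 ratio lies between 0.34 and 0.55 in WT with vehicle and between 0.57 and 0.74 in WT with PF.

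The makeup of the LC3 family was read as shares. Of the summed CPM per kb of Map1lc3a, Map1lc3b, Gabarap, Gabarapl1 and Gabarapl2, Gabarap held 60.7% ± 1.11 (SD, n = 3) in WT with vehicle, 59.6% ± 0.88 in WT with PF, 58.8% ± 1.17 in AMPKβ1-/- with vehicle and 58.4% ± 0.82 in AMPKβ1-/- with PF. Map1lc3b held 15.7% to 16.7% in the means of the 4 groups. Gabarapl1 held 11.4% to 12.7% in the libraries of WT with vehicle, 13.5% to 14.2% in WT with PF and 13.1% to 13.7% in AMPKβ1-/- with vehicle, so neither of the latter groups overlapped the first. A share is relative to the sum of the 5 genes and can rise while a gene's own CPM falls. Between genotypes with vehicle, Gabarapl1 itself was lower in AMPKβ1-/-, with 152 against 178 CPM (log2 fold change −0.23, adjusted p = 0.0211 by edgeR). With the GC and length offset this log2 fold change was 0.06 (adjusted p = 0.511). Map1lc3a held 6.09%, 5.58%, 5.14% and 4.70% in the means of the 4 groups, in the order given for Gabarap. Gabarapl2 had the smallest share in resting WT cells, 4.71% ± 0.50, and held 5.37% ± 0.48 with PF, 6.01% ± 0.32 in AMPKβ1-/- with vehicle and 6.32% ± 0.32 in AMPKβ1-/- with PF. Its share in every AMPKβ1-/- vehicle library was above that in every WT vehicle library. The genes differ in GC content, and with the GC and length offset the order turned, with log2 fold changes between genotypes of −0.45 for Gabarapl2, −0.26 for Gabarap and −0.17 for Map1lc3b, against −0.07, −0.46 and −0.41 without it.

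**Figure D5:**
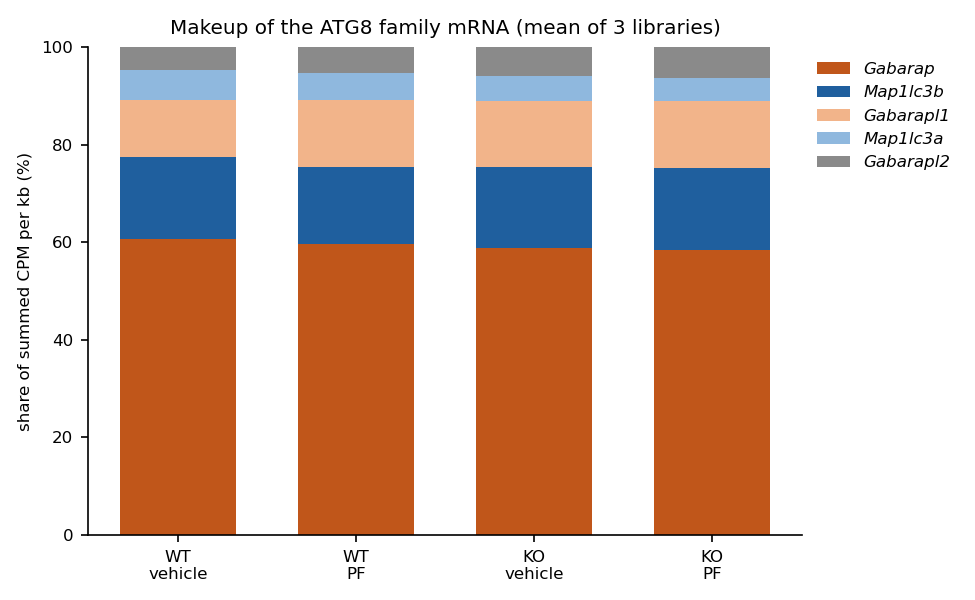
Share of each of 5 LC3 family genes (stacked bars, % of their summed CPM per kb, mean of 3 libraries) in the 4 groups; KO stands for AMPKβ1-/-. Gabarap takes 58.4% to 60.7% in every group.

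Over the 12 libraries the members moved in 2 blocks. The log2 CPM of Map1lc3b and Atg7 had a Pearson correlation of 0.98, and that of Atg5 and Atg12 one of 0.93. Between the blocks the sign was negative, as for Atg3 and Atg4b with −0.93. Gabarapl2 had between −0.32 and 0.55 with the other 9. For Atg12, the member with the smallest p in WT, the 3 tested genes most like it were Cd84, a receptor of the SLAM family (0.988), Ube2e1, a ubiquitin-conjugating enzyme (0.987), and Stx7, a syntaxin of late endosomes (0.980). The 12 points share groups, depth and the GC trend, so these correlations are descriptions only.

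Other genes of the pathway were read from lists of related genes. Of 7 conjugation and LC3 family genes outside the 10, 3 rose with PF in WT and 0 fell, against 6.99% and 8.95% of all tested genes, with a median log2 fold change of 0.25 against 0.00 over those genes. Atg4a, another ATG4 protease, had 29, 57 and 49 counts with vehicle and 66, 81 and 112 with PF (log2 fold change 0.72, SE 0.21, adjusted p = 0.0336 by edgeR). Tecpr1, which binds the ATG12-ATG5 conjugate at lysosomes, had 3973, 4177 and 3998 counts with vehicle and 6158, 5091 and 6068 with PF (0.28, SE 0.08, adjusted p = 0.0245). Gabarapl1 had 1799, 2000 and 1579 counts against 2534, 2214 and 2724 (0.25, SE 0.08, adjusted p = 0.0431). All 3 were free of overlap in CPM between vehicle and PF. With the GC and length offset Tecpr1 and Gabarapl1 stayed past the test at 0.56 and 0.33, and Atg4a did not at 0.30 (adjusted p = 0.263), so 2 of 7 rose and 0 fell where 3.25% and 4.06% of tested genes did. The other 4 did not pass, with log2 fold changes of 0.28 for Atg4c, −0.22 for Atg4d, −0.09 for Map1lc3a and −0.10 for Atg16l2.

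Between the genotypes 2 of the 7 were higher and 4 lower, against 29.7% and 30% of tested genes. With vehicle Atg4a (1.02) and Atg4c (0.98) were higher in AMPKβ1-/-, and Tecpr1 (−0.82), Atg4d (−0.71), Map1lc3a (−0.66) and Gabarapl1 (−0.23) were lower, all by edgeR on the log2 scale. Atg16l2 did not pass (−0.29, adjusted p = 0.0723). With the GC and length offset 0 were higher and 3 lower, namely Tecpr1 (−0.59), Atg4d (−0.62) and Atg16l2 (−0.45). In AMPKβ1-/- BMDMs 0 of the 7 were changed by PF in either direction, and 0 of the 7 passed the interaction, by edgeR. Under the offset 1 of the 7 passed it, Tecpr1, whose WT response exceeded the AMPKβ1-/- response by 0.41 on the log2 scale (SE 0.08, adjusted p = 0.00965 by edgeR), where 0.795% of tested genes were higher and 0.896% lower.

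The other autophagy lists were read the same way with PF in WT, where 6.99% of all tested genes rose and 8.95% fell, with a median of 0.00. Of 19 initiation and nucleation genes 0 rose and 4 fell (median log2 fold change −0.09), led by Atg2a (−0.45), a lipid transfer protein, Atg9a (−0.36), a lipid scramblase, and Rubcn (−0.24), a brake on the VPS34 complex. Of 10 receptors 4 rose and 0 fell (median 0.39), led by Optn (0.41), Tax1bp1 (0.79) and Retreg1 (0.48). Of 10 fusion and lysosome genes 2 rose, Ctsl (0.36) and Lamp2 (0.47), and 0 fell (median 0.02). Of 7 genes of the TFEB family and folliculin, Fnip2 rose (0.60) and Tfe3 (−0.35) and Tfeb (−0.33) fell (median 0.36). With the GC and length offset 0 of 19, 2 of 10, 0 of 10 and 1 of 7 passed, namely Optn and Tax1bp1 among receptors and Fnip2. The study's text or its gene tables name several of these genes from the same libraries, so the counts are not independent evidence of a direction.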

How the data were processed

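RNA sequencing of 12 BMDM libraries, 3 in each of 4 groups, was used. Per the study's methods the authors used MultiQC for quality control, Trim Galore for trimming and Salmon for quantification. The deposited file holds whole-number counts per gene, not normalized. The genome build, annotation, tool versions and Salmon's options are not given in the sources used here, and the submitters' notes also name DESeq2. Column names give the group of each library but not which sample it is, so the libraries are numbered 1 to 3 by name only.

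The counts were fitted by edgeR 4.0.16 under R 4.3.3 (TMM, filterByExpr by group, robust quasi-likelihood fit of 4 group means to all 12 libraries). An SE is the log2 fold change over the root of F, an approximation. Log2 CPM used a prior count of 2. GC content and length came from the longest CCDS-tagged coding transcript of GENCODE M21 on GRCm38, matched by symbol for 12703 genes, by an older symbol for 200 and not for 57. The GC and length offset used natural splines of 5 degrees of freedom. GC content was known for 99.7% of tested genes. The script was tested on simulated data. As alternatives, scaling was by size factors of DESeq2, upper quartiles or plain library size, low counts were kept or every library had to reach 10, and tests were by DESeq2 1.42.0, limma-voom (limma 3.58.1) or edgeR on a contrast's own libraries. Others were the offset, a log2 fold change past 0.8 as a further condition, each library left out in turn and, chosen after seeing the data, the number in the column names as a replicate block. The mRNA ratios were compared by an exact permutation test.

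Named were all 10 members, Prkab1, all 7 other conjugation and LC3 family genes, and up to 3 genes of each other autophagy list with the smallest adjusted p in WT among those below 0.05. Cell type marker lists were read for their levels and, for macrophage markers, for how many passed the test. The 3 macrophage markers that fell were named after their values were seen. The members and lists were chosen with earlier results of these data known.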

Additional observations from a re-analysis of the deposited data

How the results depend on the processing

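With PF in WT, 2 members passed with DESeq2 and with the replicate block, and 0 passed in a fit to WT libraries only, with the GC and length offset or with the further fold condition, against 1 as reported. Leaving out single libraries gave 0 to 3. The share of all tested genes called was not computed for DESeq2, for WT libraries only or without single libraries. Those counts of members therefore have no background beside them. Between genotypes the fold condition left 1 of 8, and Prkab1 fell in every alternative. Over all genes the offset left 352 rises and 439 falls with PF in WT (756 and 969 without it) and 1558 and 2165 between genotypes (3216 and 3249). The cause was not tested. Most reversals were of log2 fold changes near 0. With the offset they were, for PF in WT, Atg7 0.026, Atg10 −0.042, Map1lc3b 0.060, Gabarap −0.032 and Gabarapl2 −0.11; for PF in AMPKβ1-/-, Atg5 −0.071, Atg7 0.030, Atg10 −0.052, Atg12 −0.011 and Gabarapl2 −0.033; for the interaction, Atg3 −0.14, Atg4b 0.016, Atg16l1 0.064, Map1lc3b 0.072, Gabarap −0.0067 and Gabarapl2 −0.079; and between genotypes, Atg10 −0.28, Atg12 −0.29 and Atg16l1 0.044. Scaling by library size alone, which moved the median of all genes between genotypes to 0.18 from −0.03, turned Atg16l1 to 0.040 and Gabarapl2 to 0.14 there, Map1lc3b to 0.028 with PF in WT, Atg7 to 0.018 with PF in AMPKβ1-/-, and Atg4b, Atg16l1 and Map1lc3b to 0.045, 0.044 and 0.047 in the interaction. Upper quartile scaling turned these 3 to 0.017, 0.015 and 0.017. Atg7 with PF in AMPKβ1-/- also turned with DESeq2's size factors (0.011), DESeq2 (0.011), no filter (0.0024) and at least 10 counts per library (0.0050). Where a fit without 1 library reversed a sign, all fits without 1 library together ran from −0.10 to 0.011 for Map1lc3b and from −0.055 to 0.11 for Gabarap with PF in WT. With PF in AMPKβ1-/- they ran from −0.13 to 0.11 for Atg5, −0.036 to 0.033 for Atg7, −0.022 to 0.17 for Atg12, −0.073 to 0.0062 for Map1lc3b and −0.0054 to 0.079 for Gabarapl2. In the interaction they ran from −0.077 to 0.25 for Atg3, −0.078 to 0.091 for Atg4b, −0.15 to 0.45 for Atg10, −0.085 to 0.036 for Atg16l1, −0.065 to 0.049 for Map1lc3b and −0.0042 to 0.16 for Gabarap, and between genotypes from −0.19 to 0.016 for Gabarapl2. A fit with the column number as a replicate block was chosen after seeing the data. Deviations of same-numbered libraries from their group means correlated at −0.18 to 0.32, and in 15 of 36 pairings of a library with another group its closest library had the same number, so the numbers were not taken to pair the libraries. The block called 2, 0, 0 and 8 members in the 4 contrasts against 1, 0, 0 and 8 without it, adding Atg5 with PF in WT (adjusted p = 0.0405 by edgeR). Of all 10822 tested genes, 889 rose and 1094 fell with PF in WT under the block, and 0 and 0 with PF in AMPKβ1-/-. In the interaction 16 were higher and 31 lower, and between genotypes 3208 and 3238. Atg10 rests on 18 to 68 counts a library.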
